A study of Mus musculus with 36 samples.

Results

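A set of 10 genes that build and read repressive chromatin was followed through the HA ChIP-seq peak lists of mouse embryonic stem cells, out of 21887 protein-coding genes on the named chromosomes. The genes were Trim28, Setdb1, Suv39h2, Cbx1, Cbx3, Cbx5, Morc3, Smchd1, Ehmt1 and Ehmt2, taken as a list by symbol, with mm10 coordinates from RefSeq. Every deposited peak over the gene and 5 kb on either side was collected, and peaks within 1 kb of a gene end were kept apart from those elsewhere in the gene. The study placed HA-tagged histone H4 along the genome with 18 anti-HA pulldowns and 18 inputs, from stem cells, from neural cells made from them, and from stem cells in which Hira, DAXX or H3.3 was ablated. Peak lists of 4 pulldowns were used here, and the other 32 samples were not analysed here.

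All 4 came from mouse embryonic stem cells without a further knockout, each with a stably expressed PiggyBac construct: an empty vector, 3HA-tagged wild-type H4 (H4WT), or 3HA-tagged H4 with lysine 91 changed to arginine (H4K91R) or glutamine (H4K91Q). The cells' own H4 genes are not described as altered in the labels, so a peak gives the place of tagged H4 and not of all H4. There was 1 library per group, so no test between groups could be made and no difference was checked against replicates. Exact 95% intervals are given for counting error in genes or regions alone. H4WT has the longest list, with 69158 peaks, followed by H4K91R with 49155, H4K91Q with 14314 and the empty vector with 3007. The files give no read numbers, so depth is unknown, and a longer list can arise from a deeper library. Peak lists carry no expression, so stem cell identity could not be checked on marker transcripts. A peak is called a region below, and its fold is the authors' enrichment over local background, used only for ranks within 1 list.

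Heterochromatin silences repeats and developmental genes by methylating lysine 9 of histone H3 and binding proteins to that mark. In stem cells KRAB zinc finger proteins recognise endogenous retroviruses and recruit KAP1, the product of Trim28, which brings in the methyltransferase SETDB1 and the HP1 proteins. G9a and GLP, made by Ehmt2 and Ehmt1, add the dimethyl mark, SUV39H2 adds the trimethyl mark at satellite repeats, and HP1 alpha, beta and gamma, made by Cbx5, Cbx1 and Cbx3, read it. MORC3, an ATPase, and SMCHD1, an SMC-like protein of the inactive X chromosome and of clustered genes, act in silencing as well. The measurements below concern tagged H4 on the genes for these proteins, not on the repeats the proteins silence.

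Promoter sequences are shown first, to set starts with an H4WT region beside starts without one. RefSeq promoters (GRCm38.p6, the build of mm10), 250 bases before to 50 after a listed start, were found for 10 of the 10 genes. The first 3 below belong to genes with an H4WT region at the start and the last 3 to genes with none. They are written 5′ to 3′ on the gene's strand, and capitals mark the bases inside an H4WT region. Trim28 lies at chr7:13023902-13024201 (+), Smchd1 at chr17:71475294-71475593 (-), Suv39h2 at chr2:3474937-3475236 (-), Setdb1 at chr3:95357153-95357452 (-), Cbx1 at chr11:96788885-96789184 (+) and Cbx5 at chr15:103239803-103240102 (-).
Trim28: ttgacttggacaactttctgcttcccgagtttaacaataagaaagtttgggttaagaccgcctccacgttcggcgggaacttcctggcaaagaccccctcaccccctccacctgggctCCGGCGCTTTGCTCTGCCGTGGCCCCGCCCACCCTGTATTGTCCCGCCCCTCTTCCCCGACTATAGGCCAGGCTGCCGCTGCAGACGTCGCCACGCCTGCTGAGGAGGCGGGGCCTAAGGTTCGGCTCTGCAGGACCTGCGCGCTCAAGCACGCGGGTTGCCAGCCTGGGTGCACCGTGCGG
Smchd1: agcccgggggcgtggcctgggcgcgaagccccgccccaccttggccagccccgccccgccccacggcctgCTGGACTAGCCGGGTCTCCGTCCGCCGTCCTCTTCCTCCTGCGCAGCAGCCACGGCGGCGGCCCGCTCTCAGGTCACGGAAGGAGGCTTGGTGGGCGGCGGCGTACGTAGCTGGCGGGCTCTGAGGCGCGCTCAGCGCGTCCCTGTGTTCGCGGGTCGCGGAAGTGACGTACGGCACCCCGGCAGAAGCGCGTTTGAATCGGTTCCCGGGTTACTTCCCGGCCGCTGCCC
Suv39h2: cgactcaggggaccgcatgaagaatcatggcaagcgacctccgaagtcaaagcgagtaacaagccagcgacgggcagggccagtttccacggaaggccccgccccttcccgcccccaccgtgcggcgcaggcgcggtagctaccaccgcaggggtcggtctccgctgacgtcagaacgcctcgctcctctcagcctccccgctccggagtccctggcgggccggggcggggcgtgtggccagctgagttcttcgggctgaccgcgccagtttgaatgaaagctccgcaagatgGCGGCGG
Setdb1: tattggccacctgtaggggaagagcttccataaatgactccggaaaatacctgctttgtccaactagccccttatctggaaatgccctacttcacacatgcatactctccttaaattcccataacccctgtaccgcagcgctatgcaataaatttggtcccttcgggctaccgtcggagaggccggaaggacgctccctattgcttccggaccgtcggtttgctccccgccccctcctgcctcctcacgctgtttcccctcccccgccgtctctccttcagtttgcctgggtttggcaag
Cbx1: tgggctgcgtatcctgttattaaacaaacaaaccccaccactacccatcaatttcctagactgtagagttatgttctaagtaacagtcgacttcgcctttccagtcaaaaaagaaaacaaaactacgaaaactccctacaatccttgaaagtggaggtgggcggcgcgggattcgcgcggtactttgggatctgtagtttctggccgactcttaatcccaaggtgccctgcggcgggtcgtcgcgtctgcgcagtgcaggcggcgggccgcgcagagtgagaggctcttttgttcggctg
Cbx5: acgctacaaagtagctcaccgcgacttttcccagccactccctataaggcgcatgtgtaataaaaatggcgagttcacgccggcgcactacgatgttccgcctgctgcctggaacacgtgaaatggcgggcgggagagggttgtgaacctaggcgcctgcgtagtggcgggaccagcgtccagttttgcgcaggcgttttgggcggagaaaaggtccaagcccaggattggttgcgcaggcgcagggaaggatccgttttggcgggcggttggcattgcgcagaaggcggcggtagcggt
The H4WT regions took in 182 bases of the Trim28 promoter, 230 of the Smchd1 promoter and 7 of the Suv39h2 promoter. In each of these the capitals run to the downstream end of the window, where the region continued into the gene. Not every gene with H4WT at the start had it in the promoter. The Ehmt1 and Morc3 promoters, not printed, had no base inside an H4WT region, and the nearest was 73 and 209 bases away. The Setdb1, Cbx1 and Cbx5 promoters were 15860, 11359 and 8508 bases from the nearest H4WT region.

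All members had CpG-rich starts. The 13 listed promoters of the 10 genes held a median of 29 CpG dinucleotides in 300 bases, from 8 at the second listed start of Cbx5 to 40 at Smchd1 and at the second start of Ehmt2, against a median of 7 over all 32851 promoters in the table. The 6 promoters printed above held 23 (Trim28), 40 (Smchd1), 33 (Suv39h2), 15 (Setdb1), 22 (Cbx1) and 29 (Cbx5). Of 6 motifs searched on both strands, the GC box GGGCGG was in 12 of the 13 promoters and CGCG in 11, against 35.7% and 38.0% of all promoters, but 76.8% and 89.6% of the 11378 promoters with at least 15 CpG held them too. TATAAA was in 0 of 13, against 13.6% of all promoters and 4.61% of the CpG-rich ones. CCAAT was in 3 of 13 (37.4% of all and 34.9% of the CpG-rich ones) and the E-box CACGTG in 3 of 13 (7.15% and 11.3%). The ETS core TTCCGG was in 1, that of Setdb1, which held it 3 times (14.9% and 29.7%). CGCG and GGGCGG can overlap in these sequences. Such matches describe letters only.

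H4WT lay at the start of 7 of the 10 genes, H4K91R at 2, and H4K91Q and the empty vector at none. At either end of the gene the counts were the same: 7 of 10 for H4WT (70.0%, exact 95% interval 34.8 to 93.3) where 58.4% of all protein-coding genes had an H4WT region, and 2 of 10 for H4K91R (20%, 2.5 to 55.6) where 37.9% had one. For H4K91Q and the empty vector 0 of 10 (0.0 to 30.8) stood beside 1.27% and 1.67%. Of the 7 genes with H4WT at an end 2 also had H4K91R, where 61.3% of all such genes did. All 4 intervals include the share of all protein-coding genes. For H4WT and H4K91R the counts thus did not differ from genes at large beyond counting error. With 10 genes, even a count of 0 has an interval reaching 30.8%. For the small shares of H4K91Q and the empty vector a lower share could thus not be seen. Genes at large were not matched to the members by promoter CpG number, which is taken up below. Over the whole gene and 5 kb, H4WT was again at 7 genes (71.2% of all protein-coding genes), H4K91R at 5 (57.9%), H4K91Q at 2 (9.49%) and the empty vector at 0 (8.96%).

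**Figure D1:**
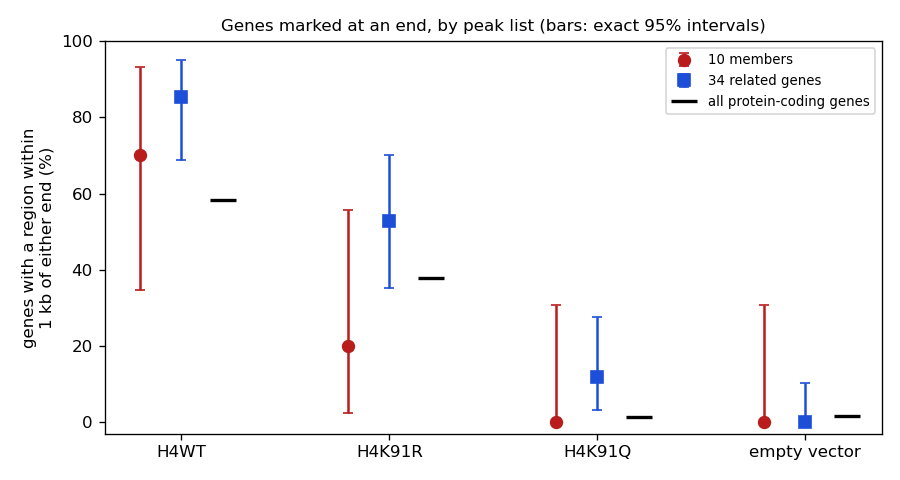
Percent of genes with a region within 1 kb of either end, for each peak list, in the 10 silencing genes, in 34 related genes and in all 21887 protein-coding genes; points are shares and bars exact 95% intervals (counting error only, 1 library per list). For the 10 genes the intervals include the share of all genes in each list, with 70.0% for H4WT and 20% for H4K91R.

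The regions themselves numbered 24 for H4WT, 14 for H4K91R, 3 for H4K91Q and 0 for the empty vector, and none of the tagged ones overlapped an empty-vector region. Ehmt2 alone held 13 of the 24 and 10 of the 14. Per 10 kb of gene and flanks the members had 0.43 H4WT regions and 0.25 H4K91R regions, against 0.52 and 0.31 over all protein-coding genes. Without Ehmt2, left out after the data were seen, the values for the members were 0.21 and 0.07. The values over all genes keep their densest genes, so they are not a like comparison for these. The median member had 1.5 H4WT and 0.5 H4K91R regions, against 2.0 and 1.0 for the median protein-coding gene. For H4K91Q the density was 0.05, against 0.04. By place, 13 H4WT regions were at a 5′ end, 2 at a 3′ end, 5 in a gene body and 4 in a flank. Of the H4K91R regions 2 were at a 5′ end, 6 in a gene body and 6 in a flank, and all 3 H4K91Q regions were in gene bodies. Inside the gene and clear of the 1 kb windows, H4WT had a region at 2 members (Ehmt1 and Ehmt2; 39.9% of all protein-coding genes), H4K91R at 3 (Trim28, Morc3 and Ehmt2; 32.6%), H4K91Q at 2 (Morc3 and Smchd1; 6.32%) and the empty vector at 0 (6.14%).

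**Figure D2:**
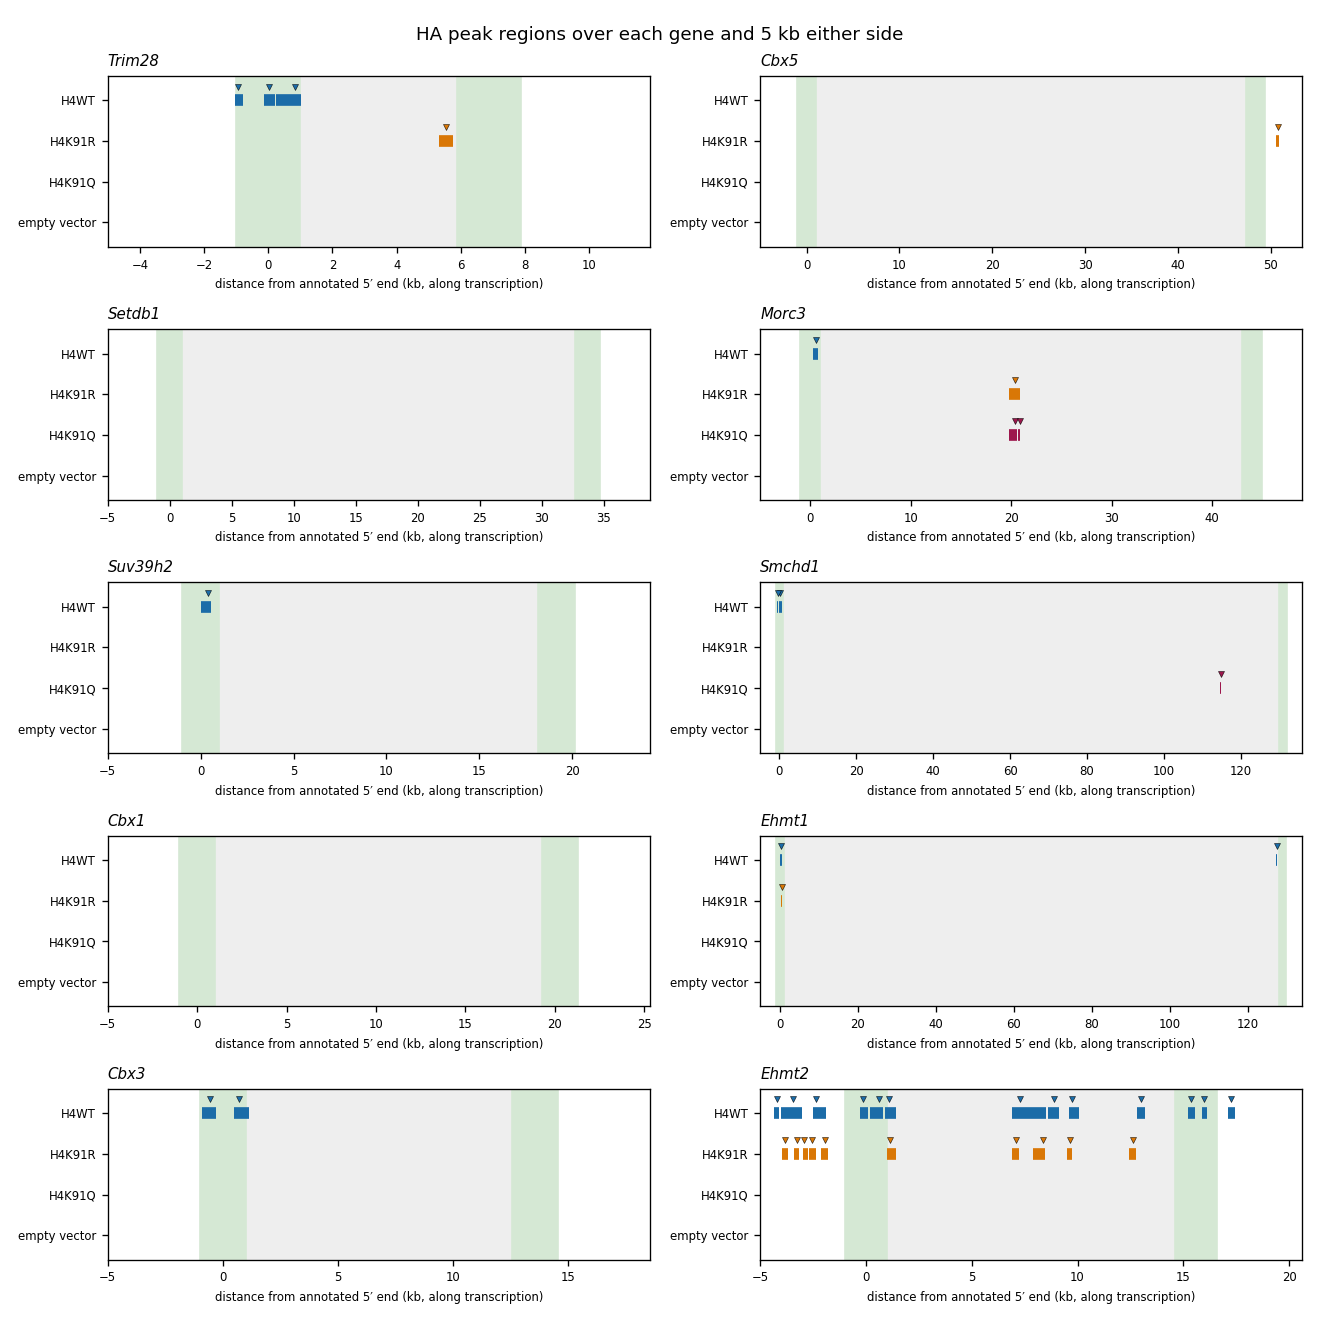
Regions of the 4 peak lists over each of the 10 genes and 5 kb either side, plotted by distance from the annotated 5′ end in kb along transcription; bars are regions to scale, triangles their summits, grey the gene and green the 1 kb either side of each end. H4WT sits at the start of 7 genes, Setdb1 and Cbx1 have no region, and Ehmt2 is the most densely covered.

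Trim28, the KAP1 gene, is short at 6881 bp (chr7:13024152-13031032). H4WT had 3 regions at its start: chr7:13023101-13023373 with a fold of 5.19, chr7:13024020-13024369 with a fold of 6.29 over the start itself, and chr7:13024382-13025173 with a fold of 10.81, higher than 96.9% of the H4WT list. These regions lay also within 1 kb of an end of Gm31649, a gene model that overlaps the start of Trim28, so they cannot be given to either alone. H4K91R had no region there. Its 1 region, chr7:13029484-13029893, lay in the gene body, with its summit 1343 bp before the 3′ end and a fold of 4.02, higher than only 3.8% of its list. H4K91Q had none within 116.8 kb of the gene. The regions called for H4WT and H4K91R on Trim28 thus did not meet, where 54.0% of all H4K91R regions met an H4WT region. The H4K91R region was a weak call, with a −log10 q of 2.99. With depth unknown, the lack of a call at the start does not show that H4K91R was absent there.

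The methyltransferase genes ranged from no region to the most of any member. Setdb1 (chr3:95323525-95357202), whose product is the KAP1-recruited enzyme, had no region of any list over its 33678 bp and 5 kb flanks. The nearest H4WT region, chr3:95314829-95315875, was 7.7 kb past its 3′ end, and the nearest H4K91R region 7.8 kb away. Genes with no tagged region over the gene or within 5 kb made up 25.2% of all protein-coding genes, and Setdb1 and Cbx1 were the 2 among the members.

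Suv39h2 (chr2:3455815-3474986) had a single region, of H4WT, at chr2:3474406-3474943. Its fold of 11.42 was the highest of any member region in that list and above 97.8% of the list. The summit was 396 bp downstream of the start, and the region ended 43 bp short of the start base. It also fell within 1 kb of an end of Dclre1c, a DNA repair nuclease gene whose annotated span overlaps that of Suv39h2. The nearest H4K91R region was 12.4 kb away, and the surrounding 1 Mb held 10 regions of H4WT and 8 of H4K91R, where the median 1 Mb window of the genome held 11 of each.

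Ehmt1 (chr2:24790769-24919643), the GLP gene, was the only member where H4WT and H4K91R met near the start with their midpoints within 1 kb of it. The H4WT region was chr2:24919043-24919487 (fold 7.80, above 81.9% of its list) and the H4K91R region chr2:24919069-24919318 lay wholly inside it, sharing 250 bp. The H4K91R region was weak in its list, with a fold of 4.28, above 11.7%, and a −log10 q of 3.34. Over the remaining length of the gene, 128875 bp in all, the only other region was of H4WT, chr2:24792124-24792400, with its summit 1471 bp before the 3′ end.

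Ehmt2 (chr17:34898463-34914073), the G9a gene, carried 13 H4WT and 10 H4K91R regions over the gene and flanks, covering 28.4% and 12.9% of that window. At least as many H4WT regions were found at 3.82% of protein-coding genes, and at least as many H4K91R regions at 2.53%. These regions were spread along the gene and not gathered at its start. The 3 H4WT regions at the 5′ end had folds of 7.19, 7.52 and 7.23. In the body the widest, chr17:34905352-34906961, spanned 1610 bp with a fold of 9.09 and took in 2 H4K91R regions, of folds 5.66 and 6.14. The H4K91R region nearest the start, chr17:34899439-34899880 (fold 7.56), lay wholly inside an H4WT region and reached the 1 kb window by only 25 bases. In the upstream flank 3 H4WT and 5 H4K91R regions lay at Zbtb12, a zinc finger gene, and at the other end 2 H4WT regions were also within 1 kb of an end of Slc44a4, a choline transporter-like gene. The 1 Mb around Ehmt2 held 236 H4WT and 124 H4K91R regions, the most around any member, where the median 1 Mb window of the genome held 11 of each. H4K91Q had no region within 116.3 kb of the gene.

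The 3 HP1 genes differed from each other. Cbx3 (HP1 gamma, chr6:51470154-51483704) had 2 H4WT regions at its start. The upstream one, chr6:51469240-51469843, had a fold of 7.55 and lay inside Hnrnpa2b1, an RNA-binding protein gene whose end is next to that of Cbx3. The other, chr6:51470652-51471305, had a fold of 5.36, below the H4WT median of 5.70, and held the whole promoter of the second listed start. Both regions lay within 1 kb of an end of Hnrnpa2b1, so they cannot be given to either gene alone. Neither mutant had a region within 36.7 kb of Cbx3. Cbx1 (HP1 beta, chr11:96788680-96808982) had no region of any list, although its 1 Mb held 127 of H4WT, and the nearest H4WT region was at chr11:96818999-96819245, past its 3′ end. Cbx5 (HP1 alpha, chr15:103191546-103239904) had no H4WT region, with the nearest 5.7 kb away. It had 1 H4K91R region, chr15:103188984-103189323, of fold 5.09, whose summit was 2382 bp past the 3′ end. Thus H4WT was at the start of 1 of 3 HP1 genes, and no mutant histone was over any of the 3.

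Morc3 and Smchd1 carried the only H4K91Q regions. At Morc3 (chr16:93832121-93876077) H4WT was at the start, in chr16:93832379-93832835 with a fold of 6.93 and the summit 540 bp downstream, a region that also lies at an end of the lncRNA gene Gm30881. The mutants were elsewhere. H4K91R had a region of 1129 bp at chr16:93851878-93853006, with the summit 20337 bp into the gene and a fold of 10.10, the highest of any member region in that list and above 96.2% of it. H4K91Q had chr16:93851888-93852741 at the same place, with a fold of 8.23, above 92.7% of its list, and chr16:93852807-93853025 beside it, with a fold of 4.22. The H4K91R region shared 854 bp with the first and 200 bp with the second, and no H4WT region met any of them. Genes with H4K91R and H4K91Q but not H4WT inside the gene beyond 1 kb of its ends were 1.08% of all protein-coding genes, and Morc3 was the 1 among the members.

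At Smchd1 (chr17:71344489-71475366) H4WT had 2 regions at the start: chr17:71474769-71475523, over the start base with a fold of 7.99, and chr17:71475676-71475903, upstream with a fold of 4.47. The 1 H4K91Q region, chr17:71360444-71360782, was 114767 bp from the start by its summit, with a fold of 4.69, above 35.7% of its list. It met no region of H4WT or H4K91R. H4K91R had none within 33.4 kb of Smchd1.

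**Figure D3:**
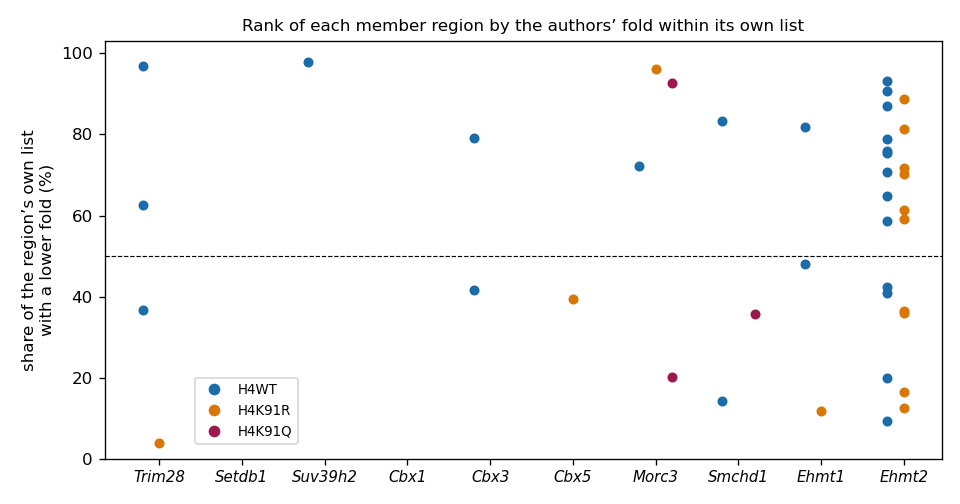
Each region over the 10 genes, placed by the percent of its own peak list with a lower authors' fold; the dashed line marks the middle of a list, and colours give the list. Among the regions shown, those of Suv39h2 (97.8%) and Morc3 (96.2%) rank highest for H4WT and H4K91R, and the H4K91R region of Trim28 (3.8%) ranks lowest.

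Within its own list a region's rank by fold varied widely among the members. Of the 24 H4WT regions, 16 were at or above the middle of the H4WT list by fold, with a median fold of 6.88 (range 4.19 to 11.42) beside 5.70 for the whole list. Of the 14 H4K91R regions 7 were at or above the middle, with a median of 5.38 (4.02 to 10.10) beside 5.28. Of the 3 H4K91Q regions 1 was.

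At the starts, most H4WT summits lay downstream, as they did in the genome. For the 13 H4WT regions at member starts the summits ran from 934 bp upstream at Trim28 to 1070 bp downstream at Ehmt2, and 9 of 13 (69.2%) were downstream, with a median over all 13 of 396 bp. Over the 17492 protein-coding genes whose strand the promoter table gives, 76.6% of 12756 such regions were downstream, with a median of 240 bp. The start base, taken as the outer gene bound, was inside an H4WT region at 3 of the 7 members (Trim28, Smchd1 and Ehmt2). The share was 39.6% of all starts with an H4WT region. Cbx3 is not counted here, although its second listed start, chr6:51471252, was inside its H4WT region chr6:51470652-51471305. The 5′ ends of 53.8% of these genes had an H4WT region and the 3′ ends 17.3%; among the members it was 7 and 1, the latter Ehmt2. For H4K91R the shares were 32.1% and 10.7%, and among the members 2 and 0. For H4K91Q and the empty vector 0.635% and 0.692% of 5′ ends had a region, and no member did.

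**Figure D4:**
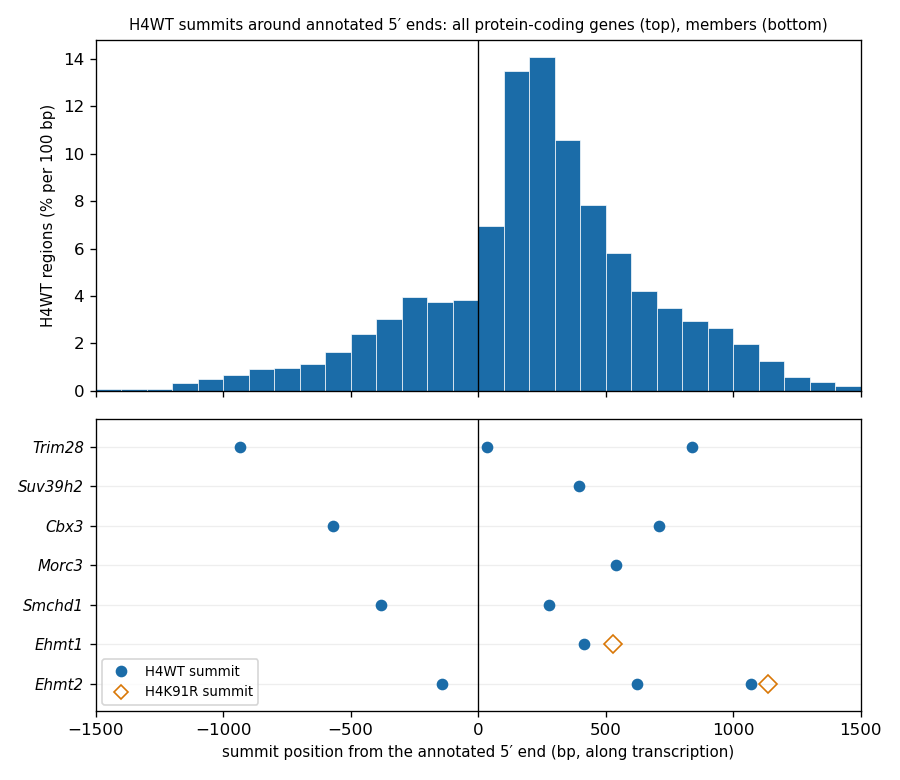
Positions of region summits around annotated 5′ ends, in bp along transcription: above, the percent of 12756 H4WT regions at protein-coding starts per 100 bp; below, each summit at the 7 genes with an H4WT region there. Of the 13 H4WT summits 9 are downstream of the start, and the H4K91R summits at Ehmt1 and Ehmt2 lie 528 and 1136 bp downstream.

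The share of genes with an H4WT region at the 5′ end went with promoter CpG number, which bears on how the members' count is read. With 0 to 4 CpG in the promoter 11.3% of genes had one, with 15 to 19 73.7%, with 20 to 24 79.8%, with 25 to 29 84.0% and with 30 or more 89.4%. All 4 members in the highest class (Suv39h2, Ehmt1, Cbx3 and Smchd1) had an H4WT region. Setdb1, Cbx1 and Cbx5, with none, were in classes where most genes had one. H4K91R went from 6.72% in the lowest class to 59.5% in the highest. It was 42.0% with 15 to 19 CpG, 43.2% with 20 to 24 and 50.1% with 25 to 29. Every class that held a member was thus above the 32.1% of all 5′ ends with an H4K91R region. H4K91Q stayed between 0.468% and 1.02%. The part of CpG number in the members' regions was not tested.

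**Figure D5:**
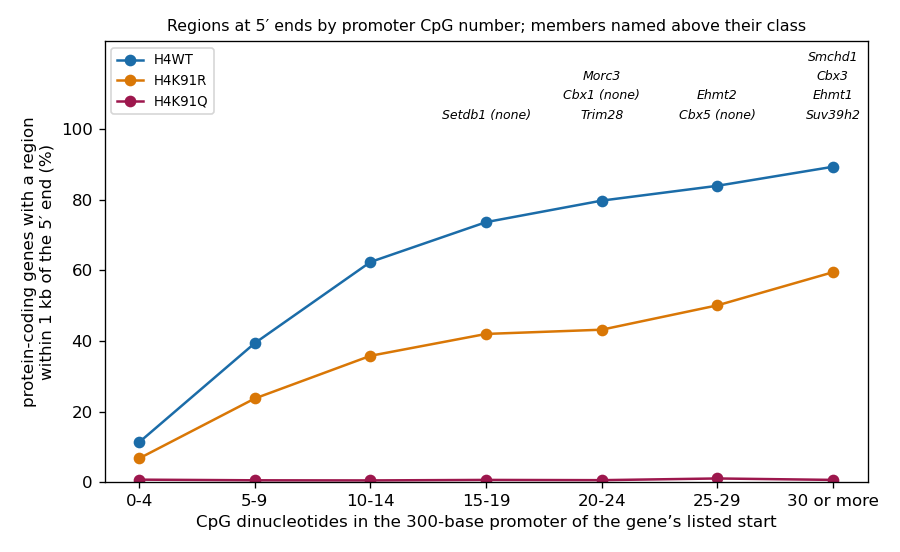
Percent of protein-coding genes with a region within 1 kb of the 5′ end, by the number of CpG dinucleotides in the 300-base promoter, for the 3 tagged lists; members are named above their class, with "none" where no H4WT region was at the start. H4WT rises from 11.3% to 89.4% and H4K91R from 6.72% to 59.5%, and the 3 genes without H4WT are in classes from 73.7% to 84.0%.

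The lists met on these genes mainly through Ehmt2. Of the 24 H4WT regions 6 met an H4K91R region (25%, 9.8 to 46.7), where 37.7% of all H4WT regions did, and 5 of the 6 were at Ehmt2. Without Ehmt2 it was 1 of 11 (9.09%, 0.2 to 41.3). Of the 14 H4K91R regions 9 met H4WT (64.3%, 35.1 to 87.2), where 54.0% of all did, and 8 of the 9 were at Ehmt2. Of the 3 H4K91Q regions 2, both at Morc3, met H4K91R (66.7%, where 53.5% of all H4K91Q regions did, and 33.3% where 50% of each region had to overlap) and 0 met H4WT (18.8% of all). Of the 24 H4WT regions 0 met H4K91Q (0.0 to 14.2), where 4.09% of all did. Each interval includes the share over the whole list. By presence at gene ends over the 4 lists, Trim28, Suv39h2, Cbx3, Morc3 and Smchd1 had H4WT alone, as 22.2% of protein-coding genes did. Ehmt1 and Ehmt2 had H4WT with H4K91R, as 34% did, and Setdb1, Cbx1 and Cbx5 had none, as 39.0% did.

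Partner genes of the same pathways were taken as a list of 34, all found in the gene table. H4WT was at an end of 29 of them (85.3%, 68.9 to 95), where 58.4% of all protein-coding genes had one. H4K91R was at 18 (52.9%, 35.1 to 70.2), where 37.9% had one. H4K91Q was at 4 (11.8%, 3.3 to 27.5) beside 1.27%, and the empty vector at 0 beside 1.67%. The H4WT and H4K91Q intervals lie above these shares of all protein-coding genes, and the H4K91R interval includes its share. Promoter CpG number was not taken into account in this comparison. The list was drawn up with some of these results known, so it gives no independent support. By role, H4WT was at 7 of 8 methyltransferases and cofactors, 3 of 4 genes of HUSH and its partner MORC2, 8 of 10 KAP1 partners and SUMO genes, 8 of 9 HP1 partners and 3 of 3 genes that maintain DNA methylation. H4K91R was at 4, 0, 6, 6 and 2 of them. The highest H4WT folds at an end were 13.11 at Kmt5b, an H4 lysine 20 methyltransferase, 12.18 at Sumo2, a SUMO modifier, and 11.50 at Hp1bp3, an HP1-binding protein. The highest for H4K91R were 17.45 at Sumo2, 13.25 at Atf7ip, the stabilising partner of SETDB1, and 11.33 at Hdac2, a histone deacetylase.

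The 4 related genes with H4K91Q at an end were Atf7ip, Sumo2, Lrif1 and Rif1. At the start of Atf7ip all 3 tagged histones met, in chr6:136518601-136519213 for H4WT (fold 8.35), chr6:136518522-136519285 for H4K91R and chr6:136518549-136519298 for H4K91Q (fold 8.55, above 94.0% of its list). They met at the start of Sumo2 too, where H4K91Q had chr11:115535602-115536170 with a fold of 5.83. Lrif1, which encodes an HP1-binding factor, was the 1 related gene with H4K91R and no H4WT at an end. Its H4K91R region, chr3:106737179-106737513 (fold 8.97), and its H4K91Q region, chr3:106737207-106737441 (fold 6.61), met at the 3′ end. At Rif1, an HP1-associated replication timing factor, H4K91Q stood apart from the others, at chr2:52127095-52127764 with a fold of 14.28, above 99.7% of its list. At its opposite end H4WT had chr2:52072886-52073507 (fold 7.99) and H4K91R chr2:52073007-52073414 (fold 4.23). Atf7ip, which encodes the partner of SETDB1, is described because it was picked for having H4K91Q at an end. Setdb1 itself had no region of any list at an end, as was so for 39.0% of protein-coding genes. A link between the 2 genes was not tested.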

How the data were processed

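The 4 files were peak lists of single pulldowns. Peaks were called with MACS2 on mm10, per the submitters' processing notes, and the peak names pair each pulldown with its own line's input. Not given in the sources used here are the aligner, the caller's version and threshold, and how duplicates were treated. The score as deposited equals 10 times the −log10 q, rounded down, in every peak (100%). The authors' fold, a ratio to local background at the summit, was used for ranks within a list. The authors' −log10 q filtered peaks and shortened lists, and their −log10 p was not used.

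Tagged peaks overlapping an empty-vector peak by at least 1 bp were left out of counts. Gene bounds came from the RefSeq table of GRCm38.p6, and strand, listed starts and promoters from its promoter table. The start or 5′ end used for counts, summit distances and start bases was the outer gene bound on that strand. It can differ from a listed start. A gene was counted at an end where a region overlapped 1 kb on either side of that end. Shares have exact (Clopper-Pearson) 95% intervals from scipy 1.17.1. The members and lists were chosen with earlier results of these data known, and all 10 members are named. Of the related genes, those with an H4K91Q or empty-vector region at an end, those with H4K91R and no H4WT there, and the 3 of highest H4WT and H4K91R fold are named. Other windows, thresholds, overlaps and list lengths were tried.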

Additional observations from a re-analysis of the deposited data

How the results depend on the processing

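H4WT at a gene end held at 7 members with windows of 500 bp or 2 kb, placement by midpoint, −log10 q at 5 or above, and empty-vector regions kept, where the share of all protein-coding genes ran from 53.6% to 62.5%. In lists of equal length (14314 peaks) it held at 5, losing Morc3 and Ehmt2, beside 29.2% of all protein-coding genes. The H4K91R count of 2 (37.9% of all protein-coding genes) was 1 with −log10 q at 5 or above (Ehmt2; 24.8%), with windows of 500 bp (Ehmt1; 31.8%), with placement by midpoint (Ehmt1; 36.5%) and in lists of equal length (Ehmt2; 14.1%). It was 3 with windows of 2 kb, which took in Trim28 (43.7%). The 5 members with H4K91R over the gene or within 5 kb became 2 at −log10 q at 5 or above and 2 in lists of equal length. The share of all protein-coding genes, 57.9% at the main setting, was not taken at those settings. This fall can therefore not be read as particular to the members. The 7 members with H4WT over the gene or within 5 kb became 9 with 10 kb flanks and 6 in lists of equal length. For these too the share of all protein-coding genes was taken only at the main setting (71.2%). The 24 H4WT regions became 37 with 10 kb flanks, 9 in lists of equal length and 11 without Ehmt2. The 14 H4K91R regions became 7 at −log10 q at 5 or above, 8 without flanks, 3 in lists of equal length and 4 without Ehmt2. The share of H4WT regions met by H4K91R went from 25% to 8.33% when 50% of each region had to overlap, 0% in lists of equal length, 13% with −log10 q at 5 or above and 9.09% without Ehmt2. The share of H4K91R regions met by H4WT went from 64.3% to 14.3%, 0%, 71.4% and 25% under the same settings. The share of the 3 H4K91Q regions met by H4K91R went from 66.7% to 33.3% when 50% of each region had to overlap, and was 66.7% under the other settings run. Among related genes lists of equal length gave 16 for H4WT (29.2% of all protein-coding genes) and 10 for H4K91R (14.1%), and windows of 500 bp gave 11 for H4K91R (31.8%). Shorter lists and narrower windows hold fewer regions by construction. Counts without Ehmt2 were added after the data were seen. Counts of empty-vector and H4K91Q regions, and of genes with them, stayed within 1.5 times their values under every setting run. The empty-vector counts at members were 0 throughout. Lists of equal length had the length of the H4K91Q list itself, so that setting could not change its counts. No paired analysis was possible because each group has 1 library and no test was made. Unknown depth limits every count of absent regions.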
